A study of Mus musculus with 193 samples.

Results

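The AKT, mTOR and FOXO pathway was followed here through 10 genes, Akt1, Akt2, Mtor, Rptor, Tsc1, Tsc2, Foxo1, Foxo3, Ddit4 and Sgk1, taken by gene symbol from a table of 19557 mouse genes. All 10 were present. The table covers single cells from mouse testes, each its own sample, that were gated by flow cytometry on GFP from an Id4-eGFP reporter, a mark of cells that transcribe the stem cell gene Id4. There were 69 cells labelled Rhox10 knockout (KO) from postnatal day 3 (P3), 53 wild-type (WT) cells from postnatal day 7 (P7) and 71 WT cells from P3, and all of them carried the reporter. Titles also carry a letter whose meaning is not given, which makes sets named here KO A, B and C (21, 12 and 36 cells), P7 A and B (12 and 41 cells) and WT P3 A and B (16 and 55 cells). No animal, litter or strain is named in the labels, nor the part of Rhox10 that was removed.

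Receptor tyrosine kinases such as those for GDNF and KIT ligand activate PI3-kinase, whose lipid product recruits AKT kinases to the membrane. AKT phosphorylates TSC2, which with TSC1 forms a complex that keeps the small GTPase RHEB inactive. When that brake is released, RHEB activates mTOR complex 1, built on the mTOR kinase and its substrate adaptor raptor (Rptor), and protein synthesis and growth follow. AKT and the related kinase SGK1 also phosphorylate FOXO transcription factors, which then leave the nucleus. In the mouse testis FOXO1 is a known marker and requirement of spermatogonial stem cells, and unrestrained mTOR complex 1 activity depletes them. All of this control acts on proteins, and the data here are RNA levels.

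Values are RPM, the reads of a gene per 1000000 reads of the cell's total. A level below means the average over cells of log2(RPM + 1), taken per lettered set and then averaged over a group's sets. A difference is the level in KO P3 cells or in WT P7 cells minus the level in WT P3 cells, and its range is that over all pairs of 1 set from each group, 6 pairs for KO and 4 for P7. Each group counts as 1 sample, because cells are not replicates and no animal is named, so no test was made. A gene was called when its difference was at least 1 in size and had the same sign in all pairs. Genes with a level of at least 1, averaged over the groups compared, were counted as measured, which left 8 of the 10 members in both comparisons. Foxo3 and Ddit4 fell below that level. Both comparisons use the same WT P3 cells.

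The total reads per cell ranged from 1118107 to 9753968 in KO P3, from 1738640 to 4778782 in WT P7 and from 251530 to 10663507 in WT P3. Every cell had Ddx4 or Dazl, defining germ cell genes, above 1 RPM, which is a low limit. The summed level of 6 germ cell markers went down to 18.2 RPM in a cell of KO set A, where the median was 979 RPM. In every other set the lowest sum was 494 RPM or more. The Rhox10 level was 2.48, 2.62 and 0.83 for KO A, B and C and 1.78 and 1.49 for WT P3 A and B, so of the KO sets C alone had less of its RNA than both WT P3 sets, and the cells are called "labelled KO". Id4 itself was lower in cells labelled KO (mean 5.55 RPM) and at P7 (7.60 RPM) than in WT P3 cells (14.6 RPM). The summed level of 7 Sertoli cell markers, including Clu, was highest in KO set A, with a median of 22.8 RPM per cell and up to 1978 RPM. That median was 2.51 RPM in KO set B, 0.524 RPM in KO set C, 0 in both P7 sets, 11.1 RPM in WT P3 set A and 1.30 RPM in WT P3 set B. The highest Sertoli sum was 627 RPM in WT P3 set B, 39.9 RPM in WT P3 set A and lower in the remaining sets. Clu exceeded 1 RPM in 33.3% of KO cells, 5.66% of P7 cells and 40.8% of WT P3 cells.

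At P7, 3 of the 8 measured members were called: Sgk1 was lower, and Tsc2 and Foxo1 were higher, than in WT P3 cells. Over all 7669 measured genes 9.9% were called, 7.02% as higher and 2.88% as lower. The differences were -2.47 for Sgk1, 1.38 for Tsc2 and 1.12 for Foxo1. A further 2 members, Mtor (higher) and Tsc1 (lower), kept 1 sign in all pairs at sizes under 1. With those, 5 of 8 members had the same sign in all pairs, against 52.1% of all measured genes. The median difference of the members was 0.09, against 0.17 for all genes.

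In cells labelled KO no member was called, where 1.66% of 7892 measured genes were called. Of the measured members, Tsc1 (0.91) and Akt1 (0.66) were higher in all 6 pairs, which 16.8% of all measured genes also were, so the members' share was near the background. The median difference was 0.24 for the 8 members, against 0.13 for all genes.

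The plot of values per cell shows these patterns for all 10 genes.

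**Figure D1:**
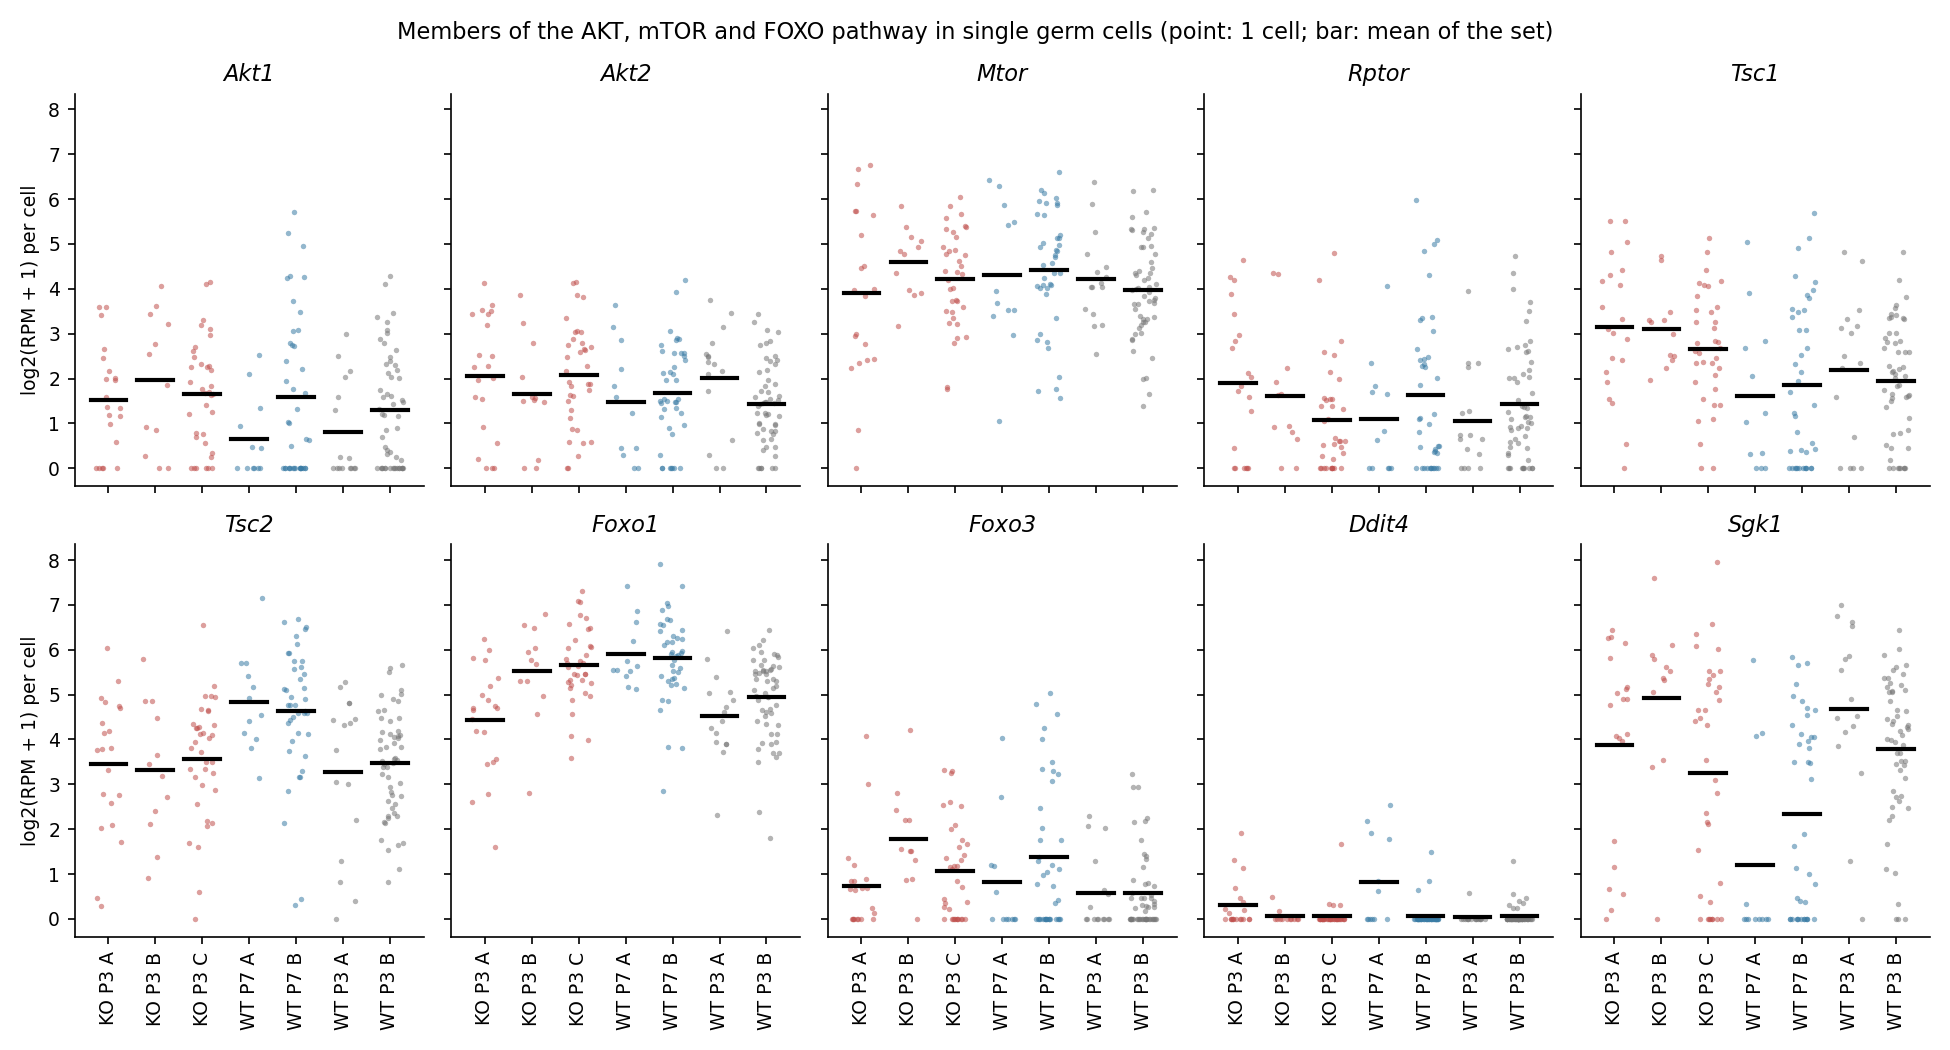
Each panel plots log2(RPM + 1) of 1 gene, with 1 point per cell and a black bar at the mean of each lettered set, for KO P3, WT P7 and WT P3 cells. Sgk1 is at the bottom of its scale in most cells of P7 set A, Tsc2 and Foxo1 are higher in both P7 sets than in both WT P3 sets, and Ddit4 is at or near 0 in nearly all cells.

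The scale matters for the P7 comparison. The deposited total includes reads outside the table, and the table held 13.9% to 23.01% of it in P7 cells, against 8.31% to 18.8% in WT P3 cells. Rescaling each cell to genes found in at least 90% of cells moved the median of all genes by -0.31 at P7 and by -0.13 in cells labelled KO. The share of called genes that were higher was 70.9% at P7 as deposited and 20.2% after rescaling, and 64.9% and 33.3% in cells labelled KO. On the rescaled values the P7 differences were -2.79 for Sgk1, 0.97 for Tsc2 and 0.67 for Foxo1, with the same sign in all pairs, and only Sgk1 was called. By rank among genes on the deposited scale, 1 of the 7669 measured genes had a lower P7 difference than Sgk1, 127 had a higher one than Tsc2 and 352 a higher one than Foxo1.

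**Figure D2:**
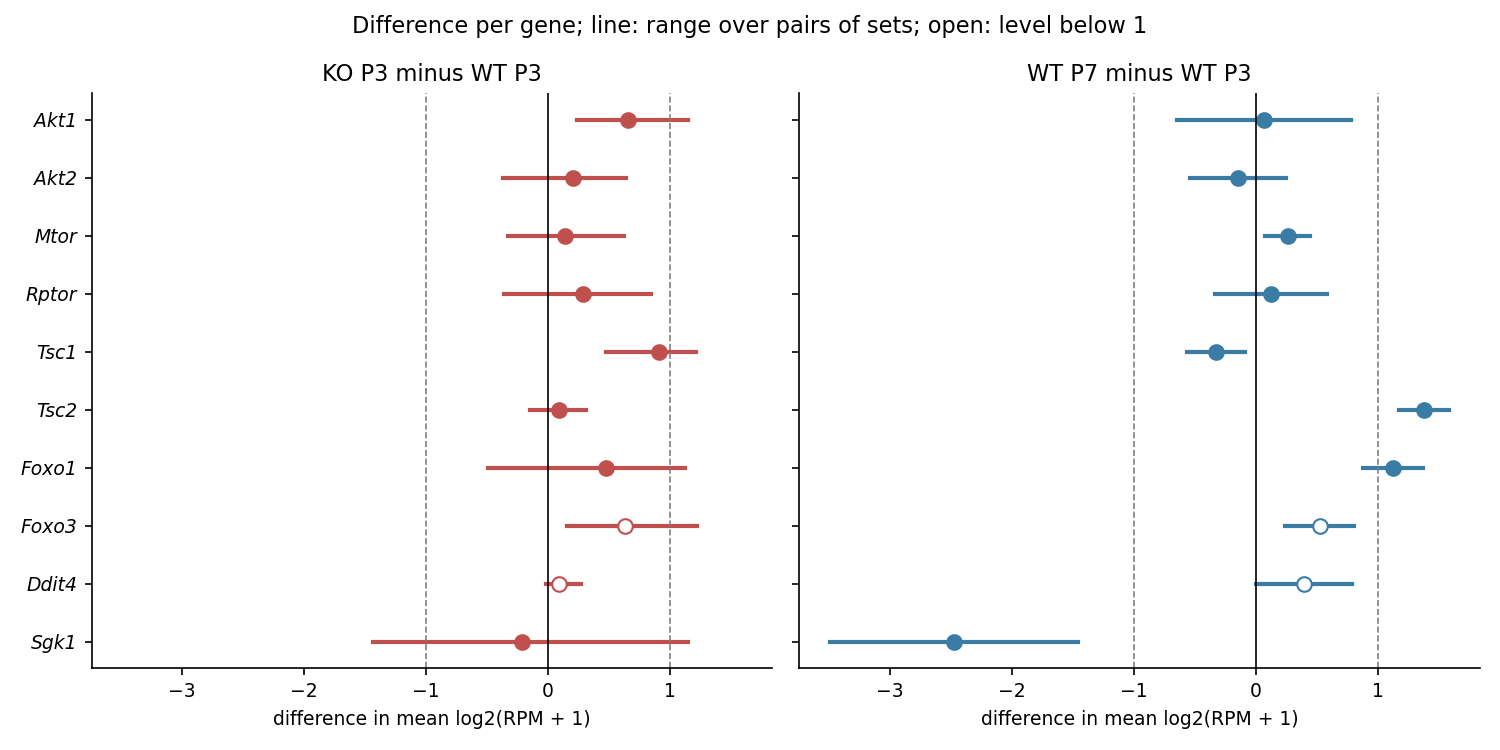
Points give the difference in mean log2(RPM + 1) of each member for KO P3 minus WT P3 and WT P7 minus WT P3, lines the range over pairs of sets, and open points the genes below a level of 1. The dashed lines mark -1 and 1, and the Sgk1, Tsc2 and Foxo1 points at P7 lie beyond them, at -2.47, 1.38 and 1.12.

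Per length of annotated exon, the members differed widely in abundance. In cells labelled KO, Sgk1 (7.27 RPM per kb) and Foxo1 (5.41) led, followed by Mtor (2.57), Tsc2 (1.63), Akt1 (0.932), Tsc1 (0.868), Akt2 (0.608), Foxo3 (0.307), Rptor (0.304) and Ddit4 (0.0890). At P7 the order was Foxo1 (7.75 RPM per kb), Tsc2 (3.73), Mtor (2.97), Sgk1 (1.93), Akt1 (0.851), Tsc1 (0.508), Akt2 (0.439), Foxo3 (0.423), Ddit4 (0.377) and Rptor (0.314). In WT P3 cells it was Sgk1 (6.66 RPM per kb), Foxo1 (3.60), Mtor (2.11), Tsc2 (1.503), Akt1 (0.497), Tsc1 (0.478), Akt2 (0.462), Rptor (0.191), Foxo3 (0.111) and Ddit4 (0.0274). In cells labelled KO the set values overlapped for Sgk1 and Foxo1, for Akt1 and Tsc1, for Tsc1 and Akt2, and for Akt2 and Foxo3. Those of Foxo3, Rptor and Ddit4 overlapped there too. In WT P3 cells those of Akt1, Tsc1 and Akt2 overlapped. At P7 the sets of Foxo1, Tsc2, Mtor and Sgk1 did not overlap with one another, and Akt1 (0.227 and 1.47 RPM per kb in sets A and B) overlapped with Sgk1 and with each gene below it. The P7 sets of Tsc1, Akt2, Foxo3, Ddit4 and Rptor overlapped with one another. Ddit4 had 0.710 RPM per kb in P7 set A and 0.0444 in P7 set B, so its place rests on set A. The exon lengths come from GENCODE vM21, which may not be the annotation the authors counted on.

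Sgk1 (chromosome 10, 21882184 to 21999903, plus strand, GRCm38) encodes a serine/threonine kinase that acts in parallel to AKT, phosphorylates FOXO proteins and is known as a rapidly inducible target of glucocorticoid and serum signals. The RefSeq promoter table holds 6 start sites for it, and a pair of their windows, of 300 bases each, contain the core of a glucocorticoid receptor site. These windows are shown because Sgk1 had the largest difference among the members. Each runs from 250 bases before a start to 50 after it, on the plus strand of GRCm38.p6 at chr10:21978422-21978721 and chr10:21993640-21993939. Capitals mark ACANNNTGT, searched on both strands, and in the second window also the E-box CACGTG.
Sgk1 window 1: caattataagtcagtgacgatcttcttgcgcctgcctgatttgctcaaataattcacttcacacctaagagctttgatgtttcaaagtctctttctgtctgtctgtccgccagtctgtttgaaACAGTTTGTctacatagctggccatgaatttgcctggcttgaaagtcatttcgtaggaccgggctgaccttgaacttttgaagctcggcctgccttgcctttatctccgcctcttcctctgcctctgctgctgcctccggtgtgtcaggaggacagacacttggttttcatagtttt
Sgk1 window 2: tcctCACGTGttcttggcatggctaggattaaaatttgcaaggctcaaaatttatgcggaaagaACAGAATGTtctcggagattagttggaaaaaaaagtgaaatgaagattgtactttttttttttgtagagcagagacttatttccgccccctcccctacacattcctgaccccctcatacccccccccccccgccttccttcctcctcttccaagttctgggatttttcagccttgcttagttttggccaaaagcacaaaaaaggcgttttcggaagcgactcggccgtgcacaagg
The receptor core starts at base 124 of the first window and at base 65 of the second, and the E-box at base 5 of the second. Of 32851 promoter windows of that length, 6.85% hold the receptor core and 7.15% the E-box, so either match is common. Among the other members, a FOXO motif (GTAAACA, found in 3.65% of windows) lies in 1 of the Akt1 windows. None of the 19 windows of the 10 members holds the AP-1 motif TGANTCA or the cyclic AMP element TGACGTCA, which 7.81% and 1.79% of all windows hold. Such matches say nothing about binding in these cells.

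Sgk1 RNA had a lowest, median and highest value of 0, 24.3 and 247.3 RPM in cells labelled KO, of 0, 1.02 and 56.5 RPM at P7, and of 0, 18.3 and 127.6 RPM in WT P3 cells. The set levels were 3.87 ± 2.19, 4.93 ± 1.90 and 3.25 ± 2.46 in KO A, B and C, 1.19 ± 2.14 and 2.33 ± 2.15 in P7 A and B, and 4.68 ± 1.95 and 3.79 ± 1.61 in WT P3 A and B (SD between cells). Both P7 sets lay below every P3 set, and the KO sets lay on both sides of WT P3. The P7 difference was -2.47 (pairs -3.49 to -1.46), and mean RPM was 9.45 at P7 against 32.7 in WT P3, a ratio of WT P3 to P7 of 3.46. The KO difference was -0.22 (pairs -1.43 to 1.14). That KO difference was positive without KO set C (0.17), without WT P3 set A (0.23), on log2 of the mean RPM (0.17) and without the cells that held Clu at 10 RPM or more (0.16).

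The lower Sgk1 level at P7 went with fewer cells that had the transcript. Sgk1 exceeded 1 RPM in 53 of 69 cells labelled KO (76.8%, exact binomial 95% interval 65.1% to 86.1%), in 27 of 53 P7 cells (50.9%, 36.8% to 64.9%) and in 66 of 71 WT P3 cells (93.0%, 84.3% to 97.7%). After each cell was thinned to 1000000 reads, a read was found in 79.7% of KO, 58.5% of P7 and 90.9% of WT P3 cells. Among the cells above 1 RPM the mean level was 4.67 and 3.90 in P7 A and B, from 3 and 24 cells, against 4.99 and 4.08 in WT P3 A and B. KO A, B and C had 4.70, 5.38 and 4.61 in such cells. These values describe cells picked by the level itself, and P7 A adds few of them. The intervals cover counting error only.

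Early response genes, which tissue dissociation can also induce, were read beside Sgk1. Fos was the 1 gene with a lower P7 difference than Sgk1. It averaged 4.50, 4.67 and 5.12 in KO A, B and C, 0.53 and 1.51 in P7 A and B, and 4.23 and 4.48 in WT P3 A and B. The mean over 8 immediate early genes was 2.71, 3.22 and 3.18 in the KO sets, 1.98 and 2.10 in the P7 sets, and 2.95 and 3.01 in the WT P3 sets. Across the cells of a set, Sgk1 and Fos had a Pearson r of 0.50, 0.27 and -0.06 in KO A, B and C, 0.45 and 0.25 in P7 A and B, and -0.08 and 0.34 in WT P3 A and B, so the sets differed in sign. The part of the dissociation response in the Sgk1 difference was not tested.

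Sgk3, which encodes the SGK family member most tied to endosomal membranes, was named after its values were seen. Its mean was 5.48 RPM per kb in cells labelled KO, 4.74 at P7 and 3.57 in WT P3 cells, and its P7 difference was -0.11 (pairs -0.37 to 0.16). At P7, Sgk1 was thus at a lower level per kb than Sgk3, while in WT P3 cells it was above it in both sets.

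Tsc2 encodes tuberin, the GTPase-activating subunit of the complex that restrains RHEB, and lies on chromosome 17 from 24595816 to 24632630 on the minus strand. Its lowest, median and highest values were 0, 12.5 and 92.2 RPM in cells labelled KO, 0.248, 26.3 and 141.0 RPM at P7, and 0, 10.8 and 49.2 RPM in WT P3 cells. By set, its level was 3.46 ± 1.54, 3.32 ± 1.49 and 3.58 ± 1.33 in KO A, B and C, 4.85 ± 1.07 and 4.64 ± 1.45 in P7 A and B, and 3.26 ± 1.78 and 3.47 ± 1.17 in WT P3 A and B. The P7 sets stood above all 5 P3 sets, which lay close together. The P7 difference was 1.38 (pairs 1.17 to 1.58), with mean RPM of 35.9 at P7 and 14.5 in WT P3, a ratio of 2.48. The KO difference was 0.09 (pairs -0.15 to 0.31). The Tsc2 transcript exceeded 1 RPM in 92.8% of KO, 96.2% of P7 and 94.4% of WT P3 cells, so the shares were close together where the levels differed.

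Tsc2 exons overlap Pkd1, a gene on the opposite strand, over 693 bases, 7.2% of the Tsc2 exon length. The strand setting of the counting is not given in the sources used here, so reads on that stretch cannot be told apart. Pkd1 itself had a P7 difference of 1.47 (pairs 0.83 to 2.11), and 10.9 RPM on average at P7 against 2.03 RPM in WT P3 cells.

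Tsc1 encodes hamartin, the partner that stabilises tuberin, and lies on chromosome 2 from 28641228 to 28691167 on the plus strand. It did not follow Tsc2. The lowest, median and highest Tsc1 values were 0, 6.10 and 44.7 RPM in cells labelled KO, 0, 1.34 and 50.96 RPM at P7, and 0, 3.43 and 27.3 RPM in WT P3 cells. Set levels were 3.16 ± 1.55, 3.11 ± 0.88 and 2.66 ± 1.28 in KO A, B and C, 1.62 ± 1.69 and 1.85 ± 1.78 in P7 A and B, and 2.19 ± 1.64 and 1.94 ± 1.28 in WT P3 A and B. All KO sets were above both WT P3 sets, and both P7 sets were below them by little.

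The KO difference of Tsc1 was 0.91 (pairs 0.48 to 1.22). Mean RPM was 10.3 for KO and 5.65 for WT P3, which gives a ratio of 1.82. Of all measured genes, 2.07% had a higher KO difference than Tsc1. The share of cells above 1 RPM was 92.8% (83.9% to 97.6%) in KO, 56.6% (42.3% to 70.2%) at P7 and 71.8% (59.9% to 81.9%) in WT P3. Without the cells that held Clu at 10 RPM or more (9 KO, 0 P7 and 15 WT P3 cells), the KO difference was 0.54 with pairs from -0.36 to 1.32. The KO difference passed 1 without KO set C (1.07) and without WT P3 set A (1.03). At P7 the difference was -0.33 (pairs -0.56 to -0.09), -0.71 without the Clu cells, and 0.09 on log2 of the mean RPM. In mean RPM, Tsc1 had 6.01 at P7 and 5.65 in WT P3. It exceeded 5 RPM in 35.8% of P7 and 35.2% of WT P3 cells, so the shares were close at that limit and apart at 1 RPM.

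As the proteins act as a complex, the balance of the transcripts was also taken as Tsc2 minus Tsc1 in each cell. This balance, chosen with the values known, averaged 0.30, 0.21 and 0.91 in KO A, B and C, 3.22 and 2.79 in P7 A and B, and 1.08 and 1.53 in WT P3 A and B. By these means the 3 groups did not overlap, with the P7 sets highest and the KO sets lowest. Relative to WT P3 the balance differed by 1.70 at P7 (pairs 1.26 to 2.15) and by -0.83 in cells labelled KO (pairs -1.32 to -0.16). After rescaling these values were 1.55 and -0.86, on reads on genes 2.12 and -1.35, and without the Clu cells 2.03 and -0.43. The size depended on the pseudocount too, with 2.31 and -1.37 at 0.1 RPM and 0.86 and -0.30 at 10 RPM. Tsc2 exceeded Tsc1 in 11 of 21, 9 of 12 and 28 of 36 cells of KO A, B and C (52.4%, 75.0% and 77.8%), in 12 of 12 and 36 of 41 cells of P7 A and B (100% and 87.8%), and in 10 of 16 and 44 of 55 cells of WT P3 A and B (62.5% and 80.0%). By these shares the P7 sets were highest, and the KO and WT P3 sets overlapped.

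**Figure D3:**
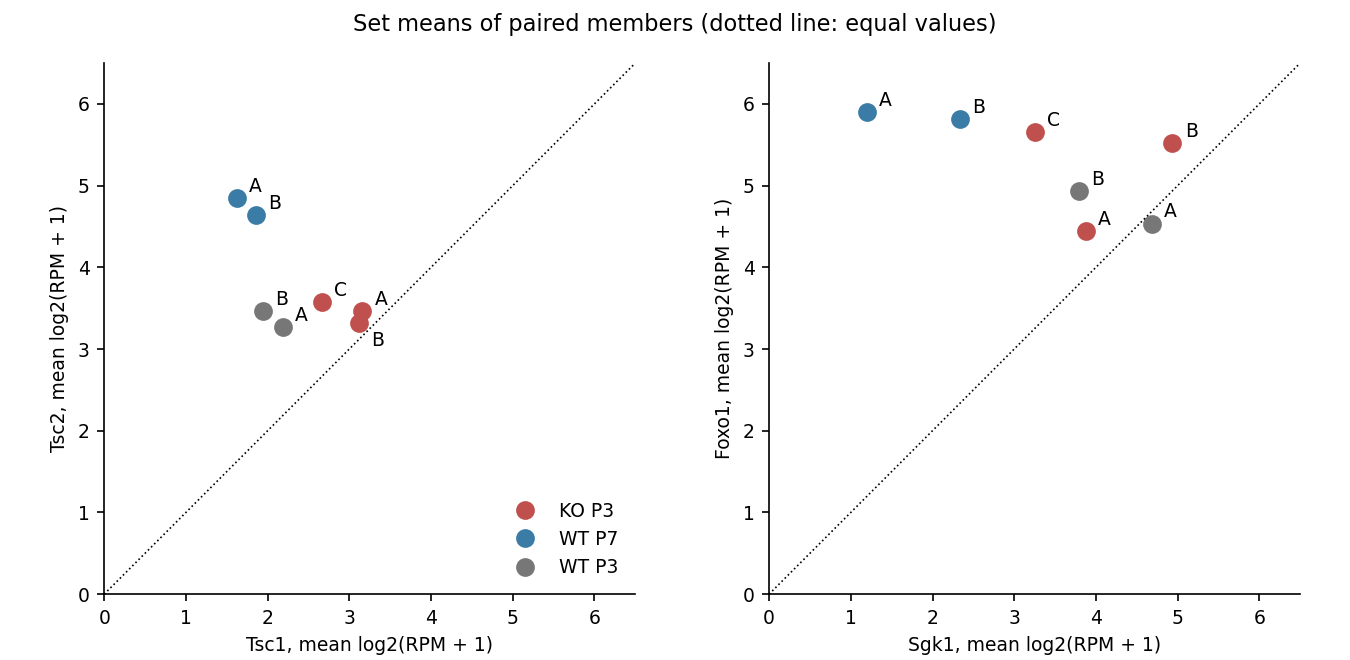
Each point is the mean log2(RPM + 1) of a lettered set, with Tsc2 against Tsc1 on the left and Foxo1 against Sgk1 on the right, for KO P3, WT P7 and WT P3, and the dotted line marks equal values. The P7 sets lie farthest above the line in both panels, with Tsc2 minus Tsc1 at 3.22 and 2.79.

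Foxo1 encodes the FOXO factor most tied to spermatogonial stem cells and lies on chromosome 3 from 52268336 to 52353221 on the plus strand. It was above 1 RPM in every cell. The lowest, median and highest values were 2.04, 40.2 and 157.9 RPM in cells labelled KO, 6.25, 56.9 and 240.9 RPM at P7, and 2.50, 30.4 and 86.5 RPM in WT P3 cells. By set the level was 4.45 ± 1.19, 5.52 ± 1.08 and 5.65 ± 0.85 in KO A, B and C, 5.90 ± 0.72 and 5.81 ± 0.97 in P7 A and B, and 4.53 ± 0.95 and 4.94 ± 0.94 in WT P3 A and B. The P7 sets were above both WT P3 sets, and so were KO sets B and C, whereas KO set A was below both.

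The P7 difference of Foxo1 was 1.12 (pairs 0.88 to 1.37), with mean RPM of 67.1 at P7 and 31.2 in WT P3, a ratio of 2.15. It lay close to the limit of a call and was under 1 without WT P3 set A (0.92), with cells weighted equally (0.99) and without the Clu cells (0.99), as well as after rescaling (0.67) and when scaled to reads on genes (0.71). The KO difference was 0.47 (pairs -0.49 to 1.12), and without KO set A it was 0.85 (pairs 0.58 to 1.12). An annotated antisense gene, Gm20402, overlaps 674 bases of Foxo1 exons (7.78%), and its reads cannot be told apart from those of Foxo1 without strand.

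Foxo3, the FOXO factor best known for holding ovarian follicles dormant, lies on chromosome 10 from 42181841 to 42276755 on the minus strand and was far less abundant. Its median was 0.808 RPM in cells labelled KO, 0.524 RPM at P7 and 0.123 RPM in WT P3 cells, and its highest value was 17.4, 31.98 and 8.44 RPM in these groups. Set levels were 0.73, 1.79 and 1.07 in KO A, B and C, 0.81 and 1.38 in P7 A and B, and 0.57 in both WT P3 sets. All KO and P7 sets lay above the WT P3 sets, from few reads. The difference was 0.63 in cells labelled KO (pairs 0.16 to 1.22) and 0.52 at P7 (pairs 0.24 to 0.81). More than 1 RPM was found in 44.9% (32.9% to 57.4%) of KO, 43.4% (29.8% to 57.7%) of P7 and 21.1% (12.3% to 32.4%) of WT P3 cells, and after thinning a read was found in 53.6%, 50.9% and 27.3% of cells in these groups.

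Within the FOXO family, per kb of exon, Foxo1 made up 80.7% of the summed RNA in cells labelled KO, 83.2% at P7 and 83.7% in WT P3 cells. Foxo3 made up 4.58% in cells labelled KO, 4.55% at P7 and 2.59% in WT P3 cells. Foxo6, named after its values were seen, held 13.1% in cells labelled KO, 11.02% at P7 and 10.5% in WT P3 cells. By set, the Foxo6 shares overlapped between the groups, and the Foxo3 shares at P7 overlapped with those of KO and of WT P3. All KO sets had a higher Foxo3 share than both WT P3 sets, by little (2.92% in KO C against 2.88% in WT P3 A). The share of Foxo1 thus differed little where its level differed. It lay between 78.7% and 85.0% over the 7 sets.

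Foxo1 and Sgk1, which encode a substrate and its kinase, were paired with their P7 differences of 1.12 and -2.47 known. Their balance at P7 restates those differences and adds no evidence to them. Foxo1 minus Sgk1 averaged 0.57, 0.59 and 2.40 in KO A, B and C, 4.71 and 3.48 in P7 A and B, and -0.15 and 1.14 in WT P3 A and B. Relative to WT P3 the P7 difference was 3.59 (pairs 2.33 to 4.85). For KO it was 0.69, with pairs from -0.57 to 2.55.

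Akt1 and Akt2 encode AKT kinases, of which AKT1 is broadly expressed and tied to growth and survival and AKT2 is best known for insulin responses. Akt1 lies on chromosome 12 from 112653821 to 112674884 on the minus strand. Akt2 lies on chromosome 7 from 27591552 to 27640826 on the plus strand. The lowest, median and highest Akt1 values were 0, 2.18 and 16.7 RPM in cells labelled KO, 0, 0.538 and 51.5 RPM at P7, and 0, 0.868 and 18.6 RPM in WT P3 cells. Its set levels were 1.53, 1.96 and 1.65 in KO A, B and C, 0.65 and 1.597 in P7 A and B, and 0.82 and 1.29 in WT P3 A and B. Each KO set was above both WT P3 sets, while the P7 sets lay on either side of them.

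The Akt1 difference was 0.66 in cells labelled KO (pairs 0.23 to 1.15) and 0.07 at P7 (pairs -0.64 to 0.78). For Akt2 it was 0.20 (pairs -0.37 to 0.64) in cells labelled KO and -0.15 (pairs -0.54 to 0.25) at P7. Akt2 had medians of 2.93 RPM in cells labelled KO, 1.90 RPM at P7 and 1.80 RPM in WT P3 cells, and its groups overlapped.

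Mtor encodes the kinase at the centre of both mTOR complexes, and lies on chromosome 4 from 148448611 to 148557683 on the plus strand. The lowest, median and highest values were 0, 19.6 and 107.8 RPM in cells labelled KO, 1.08, 22.3 and 95.7 RPM at P7, and 1.61, 15.4 and 81.7 RPM in WT P3 cells. Its set levels spanned 3.90 to 4.61 in KO, 4.30 to 4.43 at P7 and 3.98 to 4.22 in WT P3. The P7 difference of 0.26 (pairs 0.08 to 0.45) became -0.17 after rescaling and -0.20 on reads on genes, so its direction depended on the scale. The KO difference was 0.14 (pairs -0.33 to 0.62).

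Rptor encodes raptor, the subunit that presents substrates to mTOR complex 1, and lies on chromosome 11 from 119602905 to 119899576 on the plus strand. It exceeded 1 RPM in 52.2% of KO, 49.1% of P7 and 52.1% of WT P3 cells. Its set levels were 1.90, 1.62 and 1.07 in KO A, B and C, 1.09 and 1.64 in P7 A and B, and 1.06 and 1.42 in WT P3 A and B, and the groups overlapped. The difference was 0.29 in cells labelled KO (pairs -0.36 to 0.84) and 0.12 at P7 (pairs -0.33 to 0.58).

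Ddit4 (chromosome 10, 59949669 to 59951834, minus strand) encodes REDD1, a stress-induced inhibitor of mTOR complex 1 that acts through the TSC complex. It was found in few cells: 4 of 69 cells labelled KO (5.80%, 1.602% to 14.2%), 5 of 53 P7 cells (9.43%, 3.13% to 20.7%) and 1 of 71 WT P3 cells (1.41%, 0.0357% to 7.60%) exceeded 1 RPM. Of those 10 cells, 3 were in KO set A and 4 in P7 set A, where 12 cells were measured. The highest value was 2.78 RPM in cells labelled KO, 4.86 RPM at P7 and 1.45 RPM in WT P3 cells, from 5 to 16 reads in a cell above 1 RPM.

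Across all cells, within sets, the 45 pairs of members had Pearson r between -0.18 and 0.22, with a median of 0.03, in sparse values that share a cell's depth. Foxo1 had the highest r with depth, 0.25. The genes most like a member within sets, among 4687 genes, were Prmt7, Mettl5 and Ssb for Foxo1 (r 0.35, 0.35 and 0.34), Psmc3ip and Eif5b for Tsc2 (both 0.32), and Ccdc6, Spna2 and Vps29 for Mtor (0.34, 0.33 and 0.33). For Tsc1 they were Smap1, Cnot4 and Psmc6 (0.30, 0.28 and 0.27), and for Sgk1 Rrp12, Ppm1d and Mapre2 (0.26, 0.24 and 0.24). All of these are weak, and no member was among them.

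The rest of the pathway was read from lists of other genes, and their counts stand against the 9.9% of all genes called at P7 and the 1.66% called in cells labelled KO. On the PI3-kinase side, 15 of 22 genes were measured at P7, of which 2 were called higher and 1 lower, with a median difference of -0.34 against 0.17 for all genes. Igf1r, the receptor of insulin-like growth factors, was higher at P7 (1.33, pairs 0.64 to 2.03). The regulatory subunits of PI3-kinase moved apart: Pik3r2 was higher (1.40) and Pik3r1 lower (-1.71, pairs -2.10 to -1.33) at P7. The Igf1r difference was 0.88 without P7 set A and 0.89 after rescaling. In cells labelled KO, 16 genes were measured and Pik3r1 alone was called, with -1.001 (pairs -1.22 to -0.85), at the limit of a call. It was no longer called without KO set C (-0.91) or without WT P3 set A (-0.96).

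Among 24 genes of the amino acid and RHEB input to mTOR complex 1, 18 were measured at P7. Of these, 2 were called higher and 1 lower, 11 were higher and 3 lower in all pairs, where 36.5% and 15.6% of all measured genes were, and the median was 0.33. Rragd, a Rag GTPase that brings the complex to lysosomes, had 1.25 (pairs 0.62 to 1.88), 0.71 without P7 set A and 0.91 after rescaling. The transcript 2400001E08Rik, a RefSeq synonym of Lamtor1 of the Ragulator scaffold, had 1.29 (pairs 1.12 to 1.46) and 0.89 after rescaling. Prkab1, a subunit of the energy sensor AMPK, had -1.16 (pairs -2.20 to -0.13), with -0.66 without P7 set A and -0.64 without WT P3 set A. In cells labelled KO none of 18 was called and the median was 0.11.

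None of 6 measured mTOR complex subunits was called at P7 (median 0.29) or in cells labelled KO (median 0.06). None of 13 mTOR complex 1 outputs was called either, with medians of 0.25 at P7 and -0.04 in cells labelled KO. Of the other AKT, SGK and AKT substrate genes, 10 were measured and none was called, with medians of -0.16 at P7 and 0.23 in cells labelled KO. FOXO target genes gave no call among 14 measured at P7, 4 of them higher and 4 lower in all pairs, against those 36.5% and 15.6% of all genes (median -0.06), where Foxo1 itself was higher. In cells labelled KO none of 15 was called, and the median was 0.17. ATF4 and stress target genes had 4 measured at P7 and 5 in cells labelled KO, and none was called.

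Glucocorticoid receptor target genes, taken because Sgk1 is itself such a target, split at P7. Of 9 measured, 3 were called higher and 2 lower. Zbtb16, which encodes the stem cell transcription factor PLZF, had 2.28 (pairs 1.88 to 2.69) and Tsc22d3, which encodes GILZ, had 1.80 (pairs 1.48 to 2.11). Sgk1 thus differed in the opposite direction to both. Dusp1, a phosphatase that is also an early response gene, had -1.15 (pairs -1.44 to -0.87) and Fkbp5, a chaperone of the receptor, had -1.15 (pairs -1.58 to -0.71). Fkbp5 had -0.99 and Dusp1 -0.94 without P7 set B, and Fkbp5 had -0.87 without WT P3 set A. In cells labelled KO none of the 9 was called (median 0.00), but Zbtb16 rested on KO set A. Its level was 1.06, 4.52 and 4.34 for KO A, B and C and 2.77 and 3.54 for WT P3 A and B, and it exceeded 1 RPM in 5 of 21 cells of KO set A, against every cell of KO B and C. Without KO set A the Zbtb16 difference was 1.27 (pairs 0.80 to 1.75), a call. Of 8 immediate early genes measured at P7, Fos (-3.33, pairs -3.94 to -2.72) and Dusp1 were called lower and none higher, while in cells labelled KO none of 12 was called.

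The counts of list genes called in cells labelled KO depended on single sets. Without KO set A, Pik3r1, Pik3r2 (1.02, pairs 0.53 to 1.503) and Zbtb16 were the only list genes called, where 3.30% of all genes were. Without KO set C, the FOXO targets Klf4 (1.11) and Bnip3 (1.25) were called higher and Cat (-1.16) lower, as were Prkab1 (-1.66) and Slc7a5 (-1.22), where 4.89% of all genes were called. Over the 5 sets left out in turn, 0 to 3 FOXO targets, 0 to 2 PI3-kinase genes, 0 to 2 amino acid and RHEB genes and 0 to 1 genes of the other AKT, ATF4, glucocorticoid receptor and immediate early lists were called, and 0 mTOR complex subunits and outputs. Of all genes, 1.77% to 4.89% were called in these settings. At P7, leaving out 1 set gave 2 to 7 PI3-kinase genes (7 without P7 set B), 2 to 5 amino acid and RHEB genes (5 without WT P3 set B) and 0 to 2 FOXO targets, outputs and other AKT genes. The share of all genes called at P7 in these settings ran from 8.303% to 17.45%. It was 17.45% without P7 set B and 15.98% without WT P3 set B, so the background was also higher there.

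**Figure D4:**
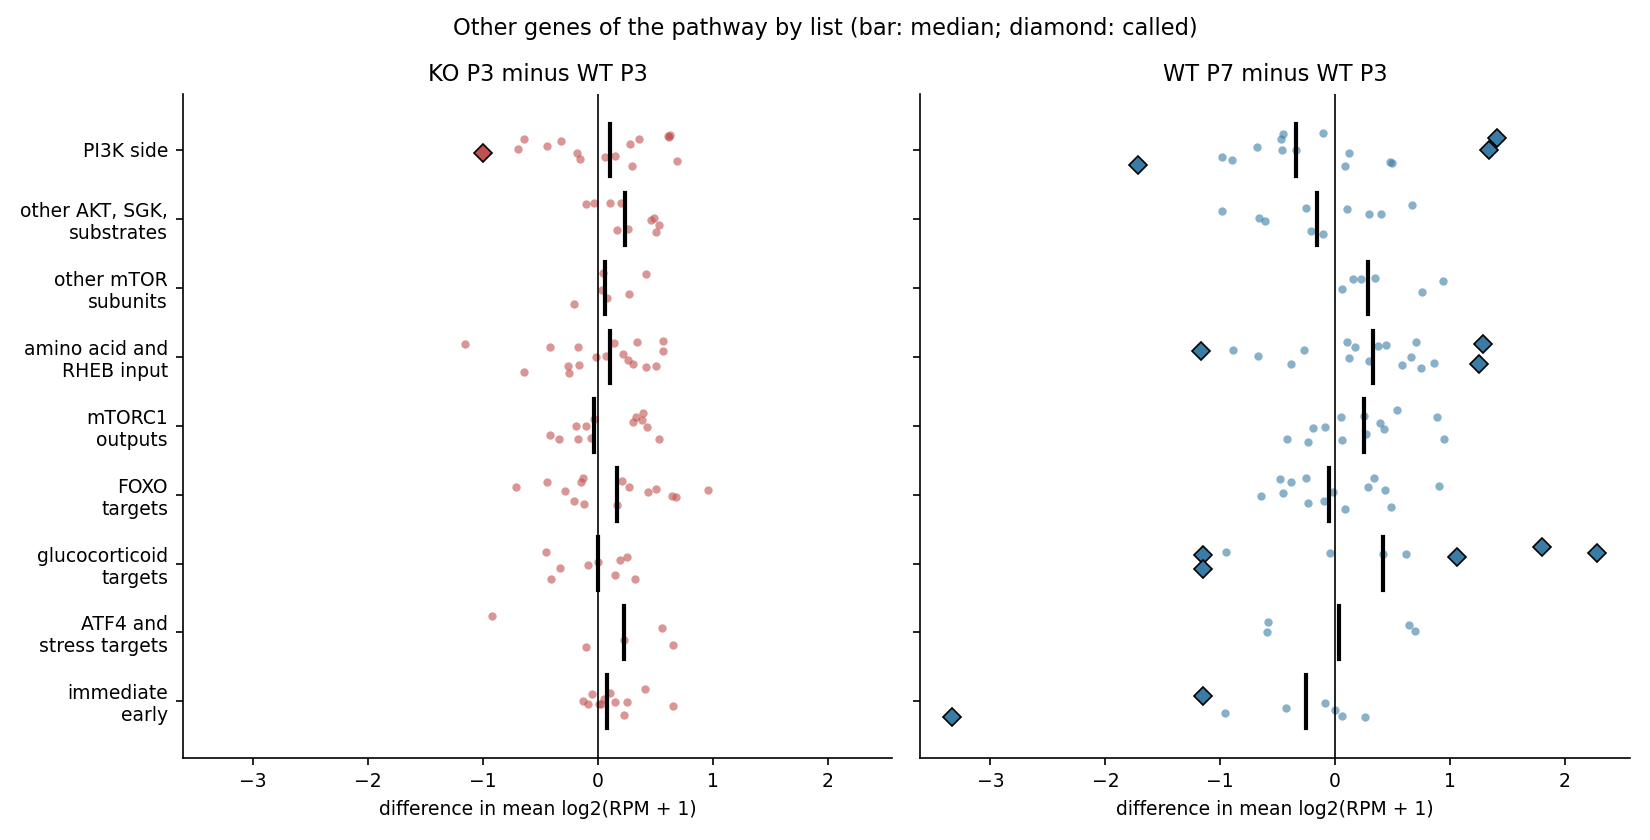
Points give the difference in mean log2(RPM + 1) of each measured gene of 9 lists, for KO P3 minus WT P3 on the left and WT P7 minus WT P3 on the right, with a bar at the median of a list and diamonds for called genes. Called genes at P7 lie on both sides of 0, from Fos at -3.33 to Zbtb16 at 2.28, and Pik3r1 at -1.001 is the 1 diamond in cells labelled KO.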

How the data were processed

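Each sample is 1 cell, processed on the Fluidigm C1 system (SMARTer cDNA, ERCC spike-ins, Nextera XT), per the labels' protocols. STAR 2.3.0, HTSeq 0.6.1 and mm10 are listed in the submitters' processing notes, with no roles. The sources used here give no annotation, strand setting or rule for multiply aligned reads. The values were deposited under the name TPM but are RPM: in every cell 100% came out as whole multiples of 1 read (tolerance 0.001 RPM), so the plan made for TPM was applied to RPM. The 84 ERCC rows and Rn45s were left out. With 1 sample per group, the count test on recovered reads was not run.

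Levels used log2(RPM + 1), which understates differences of low genes. Alternatives covered pseudocounts, scales, weights, filters, thinning to 1000000 reads, Clu cells and each set. The calling step was run on simulated reads, which checks the code and not the calls. Members, lists and measures were chosen with earlier results of these data known. Genes named were the members, the called genes of each list (at most 2 per direction), the 3 genes most like each member of level 2 or more, and Id4, Rhox10, Fos and Clu. Some genes are not reported here. Of 187 list entries, 173 matched by symbol and 7 by RefSeq synonym. Python 3.11.15, pandas 2.3.3, numpy 2.4.6 and scipy 1.17.1 were used.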

Additional observations from a re-analysis of the deposited data

How the results depend on the processing

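The number of called members in cells labelled KO was 0 as reported, 2 with a pseudocount of 0.1 (Akt1 and Tsc1, over the same 8 measured members) and 3 on reads on genes (with Foxo3, which passes the level limit on that scale). Of all genes, 1.66% were called as reported, 7.48% with the pseudocount of 0.1 and 6.58% on reads on genes. Foxo3 at a pseudocount of 0.1 had 1.44 (pairs 0.41 to 2.75). Leaving out 1 set gave 0 to 1 called members, with Tsc1 passing without KO set C or WT P3 set A, where 4.89% and 2.89% of all genes were called. At P7 the number of called members was 3, against 1 with a pseudocount of 10 and 1 after rescaling to stably detected genes. The share of all genes called in these settings was 9.9%, 0.86% and 8.42%. Sgk1 was called at P7 under all 14 alternatives, though those that only change the level filter leave its difference as it was. The median P7 difference of the measured members, 0.09, was -0.24 on reads on genes, 0.47 on log2 of the mean RPM and 0.69 for levels of at least 2. That last value rests on Mtor, Tsc2, Foxo1 and Sgk1 alone. For all measured genes the median was 0.17 as reported, and -0.33, 0.39 and 0.25 in these settings. The members above the limit in at least 50% of cells numbered 8 in KO, 6 at P7 and 7 in WT P3 at 1 RPM, and 5, 3 and 4 at 5 RPM. Of 290 recomputed member differences, 253 stayed within 1 SD of the pairs and 37 moved more. Many of the 253 were fixed in advance. The level filters leave a difference unchanged, and leaving out 1 set cannot move it beyond that SD or turn a called value. A turn of direction was looked for only in the 3 members called at P7, and none was found. With a pseudocount of 10, of the called list genes at P7, Igf1r, Tsc22d3, Zbtb16 and Fos were still called. Over all genes, the number called in KO was 131, 590 with a pseudocount of 0.1, 1 with 10, 714 on reads on genes, 287 on log2 of the mean RPM, 237 without Clu cells, 81 with cells weighted equally and 139 to 389 without 1 set. At P7 it was 759, 1758, 66, 2338, 1582 and 632 to 1323 under the same choices other than Clu and weights. The number of measured genes differed too. On reads on genes it was 10848 against 7892 as reported in KO, and 10140 against 7669 at P7. The cause was not tested. No paired analysis was possible because the letters of the sets are not explained and no test was run. Low read numbers limit Foxo3, Ddit4, Rptor and both AKT genes, and floors and intervals cover counting error only.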
